A study of Drosophila melanogaster with 4 samples.

Results

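The genes described here encode nuclear subunits of respiratory complexes II, III and IV and of the ATP synthase (complex V) of Drosophila melanogaster. They were chosen by FlyBase symbol alone: symbols that begin with Sdh and a letter A to D, with UQCR, with COX and a digit or with ATPsyn, together with blw, ox, RFeSP and Cyt-c1. The rule found 49 of the 15222 gene features counted, with 7 in complex II, 12 in complex III, 14 in complex IV and 16 in complex V. COX8 and COX7CL, whose symbols match as well, were not analysed here. Transcripts were counted in larval wing imaginal discs, the epithelial sheets that form the adult wing and notum, hand-dissected from wandering third-instar larvae. There were 2 libraries of total RNA from larvae carrying the warts allele wtsP2 and 2 from wild-type larvae (WT), all of strain yw. The warts gene codes for a kinase of the Hippo pathway, which holds the growth coactivator Yorkie in check. Neither pool sizes nor separate cultures are stated in the labels, so p-values measure the spread between these libraries, which may be technical. The libraries are called wtsP2 1, wtsP2 2, WT 1 and WT 2 below, and paired values follow that order.

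In the inner mitochondrial membrane, complex II passes electrons from succinate, and complex III from ubiquinol to cytochrome c. Complex IV passes them on to oxygen, and complexes III and IV pump protons whose return drives the ATP synthase. Complexes III, IV and V combine nuclear subunits with a few subunits encoded by the mitochondrial genome, while complex II is wholly nuclear. Flies also carry duplicates of many of these genes, several of which are known for expression in the testis. Yorkie is known in fly tissues as a regulator of mitochondrial genes as well as of growth genes.

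The libraries summed to 3520970 and 3846682 counts in wtsP2 and to 2112468 and 696952 counts in WT. In CPM (counts scaled to a common library total), 3 counts were worth 0.852 and 0.780 in wtsP2 and 1.42 and 4.30 in WT, a floor that covers counting error only. Across the 32 subunit genes that could be tested, which are not independent replicates, log2 CPM correlated at r = 0.921 between the wtsP2 libraries and at 0.570 between the WT libraries. The median gap between libraries of 1 group for these genes was 0.40 on the log2 scale in wtsP2 and 1.16 in WT. Tissue markers were not alike in both groups. The wing disc list (7 of 10 listed genes in the files, none at 0) summed to 2127 and 1894 CPM in wtsP2 and 1918 and 1947 CPM in WT. The larval fat body list (7 of 8, none at 0) summed to 888 and 1284 CPM in wtsP2 and 19385 and 19696 CPM in WT. Blood cell genes (7 of 8, none at 0) summed to 155 and 229 CPM in wtsP2 and 560 and 778 CPM in WT, and salivary gland genes (7 of 7, none at 0) to 5.11 and 1.30 CPM in wtsP2 and 491 and 461 CPM in WT. The 5 tested blood cell genes were uneven. All had negative log2 fold changes (wtsP2 over WT) with a median of -3.18, but Hml and Pxn lay at -0.28 ± 0.63 and -0.31 ± 0.84 (SE). Muscle and myoblast genes (10 of 12; Mlc1 and up at 0) summed to 870 and 784 CPM in wtsP2 and 987 and 921 CPM in WT. These sums join genes of opposite direction. Of the 7 tested, 2 had positive log2 fold changes (sls 2.05 and twi 8.80) and 5 negative ones, with a median of -1.88. These tissues use the respiratory chain too, and their part in the values below was not tested. In bulk tissue, fewer cells of a type and less RNA per cell cannot be told apart.

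All 32 that are not named as duplicates passed the filter on low counts, and none of the 17 duplicates did. Of the duplicates, 12 had no count in any library (SdhCL, SdhAL, UQCR-14L, UQCR-6.4L, UQCR-11L, COX6AL2, COX6AL, COX7AL2, COX6CL, COX5BL, ATPsynCF6L and ATPsynbetaL). The other 5 had counts in 1 library each. SdhBL had 16 counts and COX7AL 5 in wtsP2 1, COX4L had 16 and ATPsynGL 11 in wtsP2 2, and ATPsynepsilonL had 16 in WT 1. Of the 10 testis and germ line markers 8 were in the files and 7 of these were at 0, and the list summed to 0 and 4.42 CPM in wtsP2 and to 0 CPM in both WT libraries. Some duplicates lie beside their parents: COX7AL (chromosome 3R, 4169402 to 4170032) lies near COX7A (4165666 to 4166763), and COX5BL (chromosome 2L, 6559431 to 6560133) follows COX5B (6557800 to 6559308). COX7A had 313 and 441 counts in wtsP2 and 208 and 87 in WT. Coordinates here are those of the count files, whose builds are named as BDGP5 and dm3 in the submitters' processing notes. How reads shared between duplicates were assigned is not given in the sources used here.

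Levels are given as CPM per kilobase of gene length (CPKM), so that genes can be set side by side. ATP synthase genes held most of the summed level, with 54.5% and 57.1% in wtsP2 and 52.0% and 55.3% in WT. Complex II genes held the least, 2.85% and 2.65% in wtsP2 and 2.03% and 2.93% in WT. Complex III held 19.4% and 19.7% in wtsP2 and 22.2% and 22.8% in WT, and complex IV held 23.2% and 20.6% in wtsP2 and 23.8% and 19.0% in WT. The balance among the complexes was thus close in all libraries, and the groups overlapped for complexes II, IV and V but not for complex III. Within complex III, ox alone took 6.71% and 3.84% of the level in wtsP2 and 22.4% and 38.7% in WT. The separation of complex III may thus rest on this gene, and the balance without ox was not computed. As a share of all counts, the 49 genes took 0.628% and 0.531% in wtsP2, below the 0.810% and 0.759% in WT. The mean share was 0.580% ± 0.068 in wtsP2 and 0.785% ± 0.036 in WT (SD, n = 2 each), or 0.739 times the WT share. With 2 libraries a group, a two-sided exact permutation test cannot go below p = 0.333, so the difference in share could not pass.

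**Figure D1:**
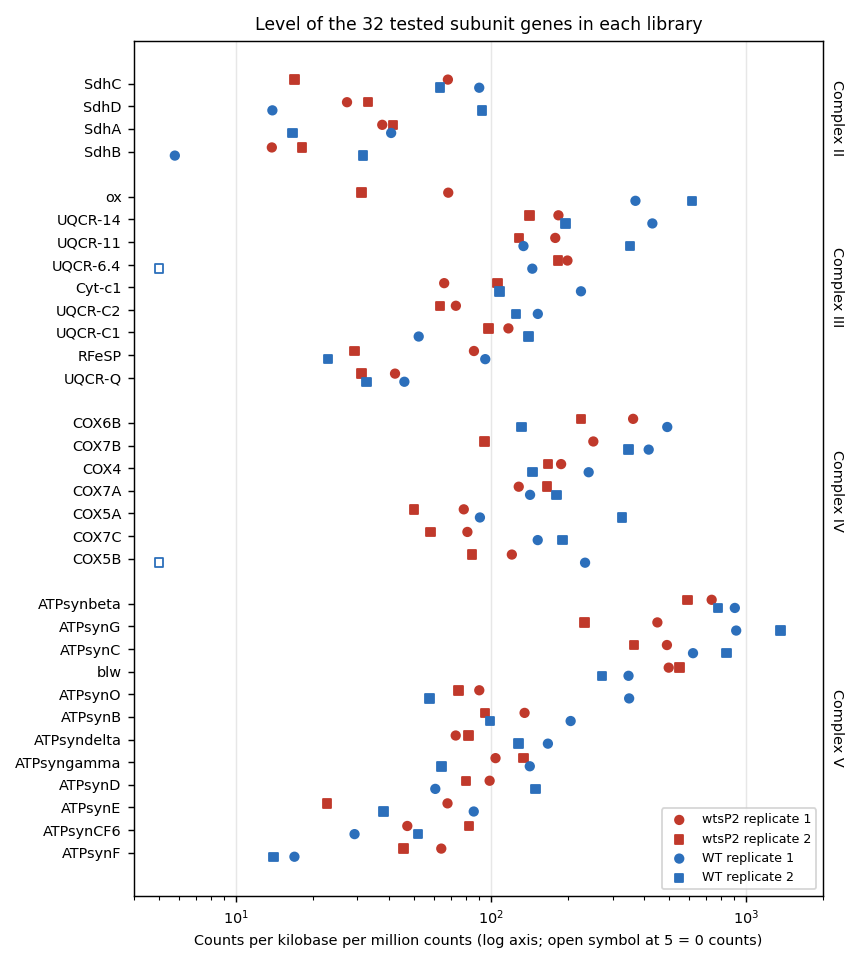
Level of each of the 32 tested genes in each library, in CPM per kilobase of gene length on a log axis, grouped by complex and ordered by mean level. Circles and squares are replicates 1 and 2, and open squares mark 0 counts (UQCR-6.4 and COX5B in WT 2). ATPsynbeta, ATPsynG, ATPsynC and blw lie highest, and the groups overlap after scaling for 20 of the 32 genes.

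Levels in wtsP2 discs were then set against those in WT discs. No subunit gene passed the threshold in edgeR's quasi-likelihood test (adjusted p under 0.05 over all 7278 genes tested): 0 of 32 were higher and 0 lower, as for all tested genes (0% higher, 0% lower). Of the 32, 25 had negative log2 fold changes and 7 positive ones, around a median of -0.30, against a median of 0.24 over all tested genes, of which 42.0% were negative. At an unadjusted p under 0.05, 3 were lower (ox, ATPsynG and COX7C; 2.65% of all tested genes) and 0 higher (9.91% of all). After scaling, both wtsP2 libraries lay below both WT libraries for 8 of the 32 (15.1% of all tested genes) and above them for 4 (32.3% of all). DESeq2 called 0 higher and 2 lower, ox and ATPsynG, where it called 1.45% of its genes higher and 1.26% lower. The limma-voom test called 0 of the 32, with 1.69% of all genes higher and 0.371% lower.

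Genes of like length and level gave a different background from all genes together. The subunit genes are short, with a median length of 789 bases against 2096 over all tested genes, and 21 of the 32 were in the shortest of 5 length classes (up to 1128 bases). None was in the longest class, or in the lowest of 5 classes by level. Among other tested genes, the median log2 fold change was -0.11 in the shortest class and 0.59 in the longest, and 1.11 in the class of the lowest level. Each gene was therefore set beside the other tested genes of its own class, out of 5 length by 5 level classes. In these classes the other genes had a median log2 fold change of -0.37 at the median member. The subunit genes differed from their classes by a median of -0.02, with 16 above the class median and 16 below it. Of the 32, 78.1% were negative, where a mean of 64.0% of the other genes in their classes were. For 25.0% of them both wtsP2 libraries lay below both WT libraries, against 30.2% in their classes, and for 12.5% both lay above, against 13.7%. Of the 32, 9.38% were lower at an unadjusted p under 0.05, against 9.27%. Across the 32 genes themselves, log2 fold change and length had a Spearman rho of 0.132 (0.176 over all tested genes), which is a description over genes that share their libraries.

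**Figure D2:**
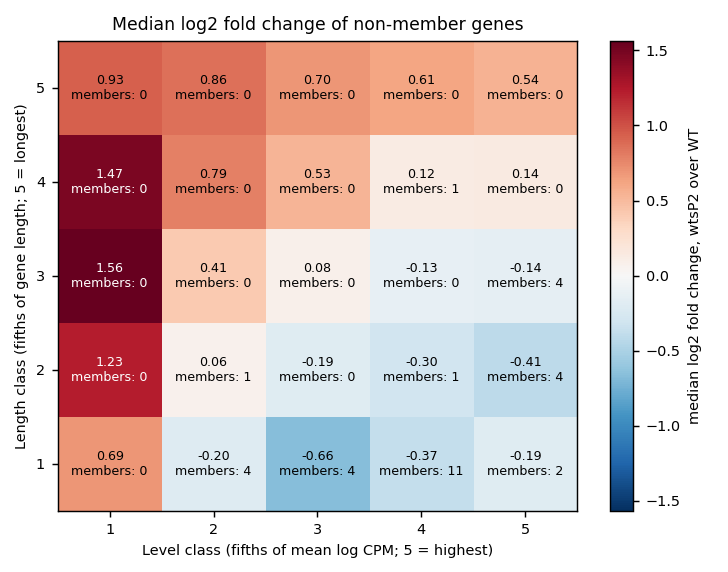
Median log2 fold change (wtsP2 over WT) of tested genes outside the subunit list by 5 classes of mean log CPM (horizontal) and 5 classes of gene length (vertical), with the number of subunit genes in each class. The most populated class, with 11 subunit genes, has a median of -0.37, while every class of the longest genes or of the lowest level lies above 0.

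The summary values varied as single libraries were left out, though the median of the subunit genes stayed negative. The median of the subunit genes was -0.06 and -0.45 without WT 1 and WT 2, and -0.51 and -0.14 without wtsP2 1 and wtsP2 2. Each fit was filtered anew, and in this order kept 34, 35, 33 and 33 subunit genes, duplicates among them. The median over all tested genes was 1.33, 0.28, 0.24 and 0.19 in the same 4 fits. The members' median distance from genes of like length and level was -0.06, -0.22, -0.09 and 0.18 in them. Without WT 1, 5 subunit genes were called higher and 4 lower, where 31.5% and 8.53% of all genes were called in those directions. Without WT 2, 0 were called higher and 6 lower, against 12.3% and 5.67% of all genes. Without wtsP2 1 or wtsP2 2, calls were rare over all genes, and no subunit gene was among them. Such fits have 1 library in a group, taken to vary like those of the other group. Only ox and ATPsynG were called in both fits without a WT library.

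**Figure D3:**
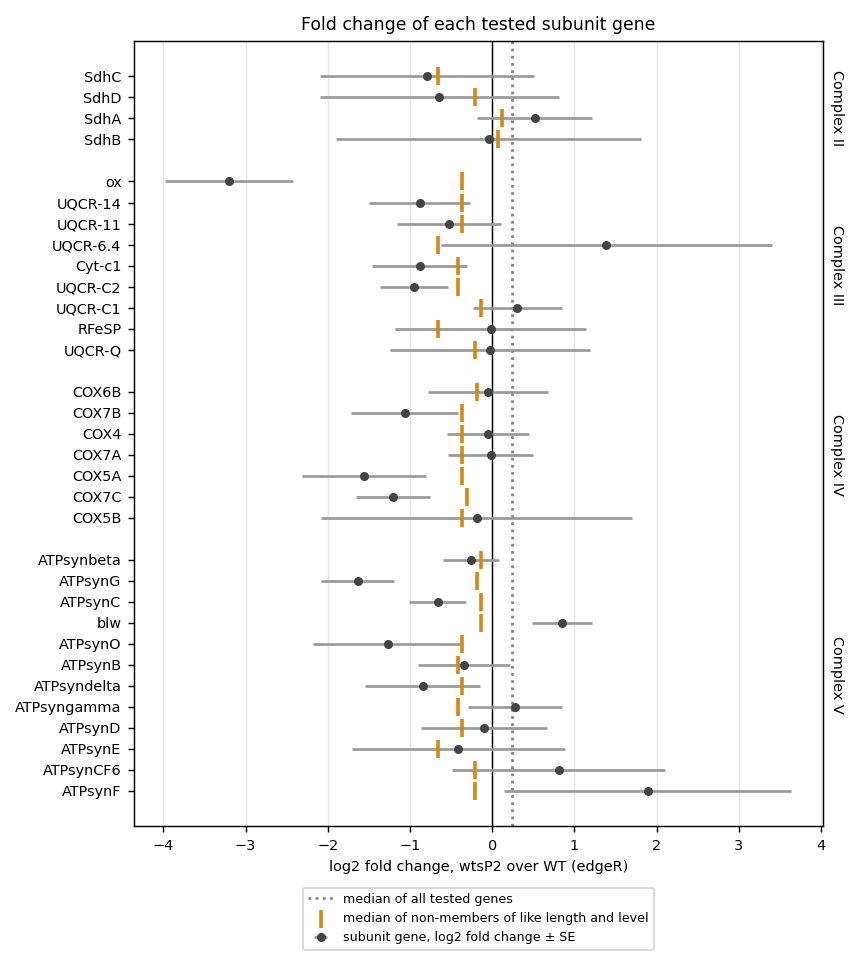
Log2 fold change (wtsP2 over WT) of each tested subunit gene with its standard error, grouped by complex. Orange ticks give the median of other genes of like length and level, and the dotted line the median of all tested genes. For 21 of the 32 genes the tick lies within 1 SE. Below it by more than 1 SE lie 7 genes, ox the farthest, and above it 4 (UQCR-6.4, blw, ATPsyngamma and ATPsynF).

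Complex II oxidizes succinate and is shared with the Krebs cycle. Its 4 tested genes had a median log2 fold change of -0.34 and 0 passed. Fits with 1 library left out were filtered anew. Over 5 genes, a duplicate among them, the complex II median was 1.17 without WT 2 and -0.41 without WT 1. Over the same 4 genes it was -0.13 and -0.21 without wtsP2 1 and wtsP2 2. SdhC, for a membrane anchor subunit (FBgn0037873; chromosome 3R, 7034856 to 7035571), had 157 and 43 counts in wtsP2 and 125 and 29 in WT, at -0.80 ± 1.30 (SE, n = 2 per group, here and below; edgeR adjusted p = 0.968). It lay at -0.41 and -1.06 without WT 1 and WT 2, and at -2.00 and -0.13 without wtsP2 1 and wtsP2 2. SdhD, the other anchor (chromosome 3R, 19585207 to 19586318), had 85 and 112 counts in wtsP2 and 26 and 57 in WT, at -0.64 ± 1.45. Its level was 27.3 and 32.9 CPKM in wtsP2, between the WT values of 13.9 and 92.5 CPKM. SdhA, the flavoprotein that binds succinate (chromosome 2R, 15279368 to 15283477), had 363 and 438 counts in wtsP2 and 236 and 32 in WT, at 0.52 ± 0.70. It was called higher without WT 1 (1.43, edgeR adjusted p = 0.0427) and lay at 0.0164 without WT 2 (adjusted p = 0.984). The iron-sulphur subunit gene SdhB had 60 and 86 counts in wtsP2 and 15 and 27 in WT, at -0.04 ± 1.86. Groups overlapped for all 4 genes, and the summed complex II level was 149 and 110 CPKM in wtsP2 and 150 and 204 CPKM in WT.

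Complex III, the cytochrome bc1 complex, showed the widest range. Its 9 tested genes had a median of -0.52 (-0.13 and -0.69 without WT 1 and WT 2, -0.70 and -0.34 without wtsP2 1 and wtsP2 2), with 7 negative and 0 called. The ox gene, for a small accessory subunit (FBgn0011227; chromosome 2R, 8644644 to 8645028; 317 bases), had 76 and 38 counts in wtsP2, against 247 and 136 in WT, although the wtsP2 libraries were deeper. Its level was 68.1 and 31.2 CPKM in wtsP2 and 369 and 616 CPKM in WT, and the groups did not overlap. The log2 fold change was -3.20 ± 0.77 (edgeR adjusted p = 0.368), in a class of genes with a median of -0.37. It was called by DESeq2 (-3.29, adjusted p = 0.0141) and without WT 1 (-3.45, adjusted p = 0.000183) and WT 2 (-2.85, adjusted p = 0.00107), and its edgeR adjusted p was at most 0.9999 over 14 alternatives, reached without wtsP2 1. Its span overlaps mRpL18, a mitochondrial ribosomal protein gene on the other strand, by 35 bases. That gene had 28 and 7 counts in wtsP2 and 95 and 32 in WT, at -3.13, and since the strand setting of the counting is not given, reads in the overlap cannot be assigned. In all, 18 of the 49 genes, 13 of them tested, overlap the span of another gene.

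The core proteins of complex III, UQCR-C1 and UQCR-C2, are paired subunits on its matrix side. UQCR-C2 (chromosome 3L, 16577224 to 16579211) had 432 and 408 counts in wtsP2 and 543 and 147 in WT, at -0.95 ± 0.41 (edgeR adjusted p = 0.457), and its groups did not overlap. It was called lower without WT 2 (-1.11, adjusted p = 0.0364). UQCR-C1 had 734 and 671 counts in wtsP2 and 196 and 174 in WT, at 0.30 ± 0.54, with overlapping groups, and its sign changed without WT 1 (-0.19, and 1.10 without WT 2). The ratio of UQCR-C1 to UQCR-C2 level, which needs no scaling between libraries, was 1.61 and 1.55 in wtsP2 and 0.341 and 1.12 in WT.

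The redox subunits of complex III overlapped between groups after scaling. Cyt-c1, the haem subunit that reduces cytochrome c (chromosome 3L, 5353290 to 5355898), had 355 and 627 counts in wtsP2 and 732 and 116 in WT, at -0.88 ± 0.58. It was called lower without WT 2 (-1.33, adjusted p = 0.0111) and lay at -0.13 without WT 1. RFeSP, the Rieske iron-sulphur protein gene, had 283 and 105 counts in wtsP2 and 188 and 15 in WT, at -0.02 ± 1.16. It was at 1.49 and -0.69 without WT 1 and WT 2, and at -0.89 and 0.55 without wtsP2 1 and wtsP2 2. Among the small subunits, UQCR-14 (chromosome X, 16180321 to 16181021) had 337 and 283 counts in wtsP2 and 472 and 71 in WT, at -0.88 ± 0.61, and was called lower without WT 2 (-1.35, adjusted p = 0.0171). It lay at -0.0805 without WT 1 (edgeR adjusted p = 0.904) and at -0.13 with a length curve taken out. UQCR-11 (3LHet, 606165 to 606827) had 342 and 269 counts in wtsP2 and 154 and 133 in WT, at -0.52 ± 0.63, and was at 0.25 without WT 2. UQCR-Q had 144 and 116 counts in wtsP2 and 94 and 22 in WT, at -0.02 ± 1.22. UQCR-6.4 had 206 and 207 counts in wtsP2 and 90 and 0 in WT, at 1.39 ± 2.01, although 29.7 counts were due in WT 2 from the level in WT 1. Its level was 199.7 and 184 CPKM in wtsP2, against 145 CPKM in WT 1. Its log2 fold change was 0.45 without WT 2, 2.38 with a length curve taken out, 3.30 with the replicate block and 4.71 in limma-voom, and none of these passed.

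Complex IV, cytochrome c oxidase, had 7 tested genes, all with negative log2 fold changes (median -0.19) and 0 called. Over 8 genes, a duplicate among them, the median was 0.19 and -0.57 without WT 1 and WT 2. Over the 7 it was -0.37 and -0.25 without wtsP2 1 and wtsP2 2. In the main fit only 3 of the 7 lay more than 1 on the log2 scale below 0. These nuclear subunits surround a core encoded by the mitochondrial genome. COX7C (FBgn0040773; chromosome 2R, 5936985 to 5938379) had 334 and 261 counts in wtsP2 and 378 and 156 in WT, or 80.9 and 57.9 CPKM in wtsP2 and 153 and 191 CPKM in WT. Its log2 fold change was -1.20 ± 0.45 (edgeR adjusted p = 0.368), and it was called lower without WT 1 (-1.27, adjusted p = 0.0211). COX5A (chromosome 3R, 7645081 to 7646021) had 219 and 153 counts in wtsP2 and 152 and 181 in WT, at -1.56 ± 0.75. Its WT levels of 90.6 and 327 CPKM lay far apart, above 78.3 and 50.1 CPKM in wtsP2, and it was called lower without WT 1 (-2.17, adjusted p = 0.000844) and lay at -0.45 without WT 2. COX7B (chromosome 3L, 17418588 to 17419382) had 357 and 146 counts in wtsP2 and 353 and 97 in WT, at -1.07 ± 0.65, and its groups did not overlap. It lay at -1.84 without wtsP2 1, -0.54 without wtsP2 2 and -0.35 with a length curve taken out.

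The other complex IV genes lay near 0. COX6B, for a subunit on the intermembrane side (chromosome X, 19634575 to 19638371), had 997 and 679 counts in wtsP2 and 814 and 72 in WT, at -0.05 ± 0.73. It was called higher without WT 1 (1.34, adjusted p = 0.0199) and lay at -0.70 without WT 2. CG18809, on the same strand, overlaps 2559 bases of its span, with 188 and 56 counts in wtsP2 and 78 and 64 in WT. COX4 (chromosome 2L, 19958707 to 19960004) had 490 and 475 counts in wtsP2 and 377 and 75 in WT, at -0.05 ± 0.50. COX7A was at -0.02 ± 0.52. COX5B had 309 and 236 counts in wtsP2 and 359 and 0 in WT, at -0.19 ± 1.89, although 118 counts were due in WT 2 from the level in WT 1. Without WT 1 COX5B and UQCR-6.4 have no WT count, so no fold is given for them there, and they are among the 5 called higher in that fit.

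The ATP synthase had 12 tested genes with a median of -0.30, of which 8 were negative, 4 positive and 0 called. The median was 0.41 without WT 1, over the same 12 genes. Over 13 genes, a duplicate among them, it was -0.49 without WT 2, and -0.54 and -0.14 without wtsP2 1 and wtsP2 2. In the catalytic F1 head, alpha and beta subunits alternate around a ring, and catalysis is on beta. ATPsynbeta (FBgn0010217; chromosome 4, 1052440 to 1055175) had 4602 and 4048 counts in wtsP2 and 3403 and 966 in WT, or 734 and 591 CPKM in wtsP2 and 904 and 778 CPKM in WT, at -0.26 ± 0.34 (edgeR adjusted p = 0.943). The groups lay apart in CPKM but overlapped after scaling, and the log2 fold change was -0.0447 and -0.40 without WT 1 and WT 2. The alpha subunit gene blw (FBgn0011211; chromosome 2R, 18686561 to 18689685) had 4017 and 4840 counts in wtsP2 and 1677 and 435 in WT. Its level was 498 and 549 CPKM in wtsP2 and 347 and 272 CPKM in WT, the groups did not overlap, and its log2 fold change was 0.85 ± 0.36 (edgeR adjusted p = 0.444), where its class had a median of -0.14. It was called higher without WT 1 (1.14, adjusted p = 0.0446) and had positive values in all 14 alternatives, from 0.65 to 1.14.

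Within a library, the ratio of blw to ATPsynbeta level was 0.679 and 0.929 in wtsP2 and 0.383 and 0.350 in WT. This ratio needs no scaling between libraries, and the groups did not overlap. This ratio and that of UQCR-C1 to UQCR-C2 were picked out after the values were seen, and carry no test.

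The other F1 and stalk genes were counted at lower levels and with wide errors. For ATPsyngamma, the rotating shaft, the counts were 526 and 739 in wtsP2 and 430 and 64 in WT, at 0.28 ± 0.58, and -0.19 without WT 2. For ATPsyndelta, also in the central stalk, they were 169 and 207 in wtsP2 and 233 and 59 in WT, at -0.85 ± 0.70 with groups that did not overlap, and at -0.54 without WT 1. Genes of the peripheral stalk, which holds the head still, lay on both sides of 0. ATPsynO, for the oligomycin sensitivity-conferring protein that joins this stalk to the head, had 309 and 280 counts in wtsP2 and 717 and 39 in WT, at -1.27 ± 0.91. It was called lower without WT 2 (-2.03, adjusted p = 0.000120) and lay at 0.71 without WT 1. ATPsynB, ATPsynD and ATPsynCF6 were at -0.35 ± 0.56, -0.10 ± 0.77 and 0.81 ± 1.30. ATPsynCF6 lay at 0.52 without WT 1 and at 0.30 without wtsP2 2.

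The genes of the membrane part spanned the range of the ATP synthase. ATPsynC, for the c-ring that turns with proton flow (chromosome 3R, 27041867 to 27045352), had 3406 and 2765 counts in wtsP2 and 2586 and 1153 in WT, or 490 and 364 CPKM in wtsP2 and 620 and 838 CPKM in WT. Its groups did not overlap, and its log2 fold change was -0.67 ± 0.34 (edgeR adjusted p = 0.572). The RNA gene RNaseP:RNA lies in its span on the same strand, with 2634 and 3394 counts in wtsP2 and 1387 and 381 in WT. ATPsynG, for an accessory subunit of the membrane part (FBgn0010612; chromosome 2L, 10975552 to 10976422; 777 bases), had 1230 and 697 counts in wtsP2 and 1503 and 739 in WT. Its level was 450 and 233 CPKM in wtsP2 and 916 and 1365 CPKM in WT, where it lay above ATPsynbeta in both libraries. The log2 fold change was -1.64 ± 0.45 (edgeR adjusted p = 0.368), in a class with a median of -0.19. DESeq2 called it (-1.72, adjusted p = 0.0460), as did the fits without WT 1 (-1.82, adjusted p = 0.00216) and WT 2 (-1.38, adjusted p = 0.0105), while its edgeR adjusted p was 0.9999 without wtsP2 1. The accessory genes ATPsynE and ATPsynF lay on either side of 0, at -0.41 ± 1.30 and 1.89 ± 1.75. ATPsynF had 138 and 107 counts in wtsP2 and 22 and 6 in WT, with groups that did not overlap.

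**Figure D4:**
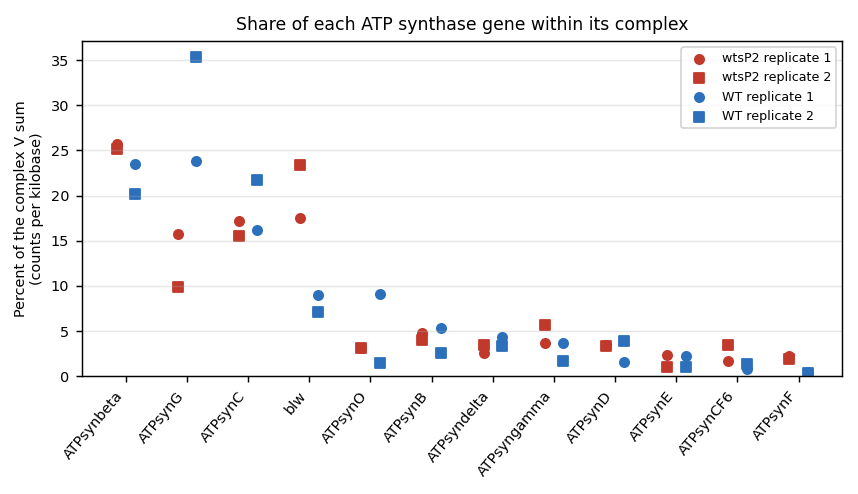
Share of each tested ATP synthase gene in the summed level of its complex (percent of counts per kilobase), in each library. ATPsynG holds 15.8% and 9.91% in wtsP2 and 23.8% and 35.4% in WT, while blw holds 17.5% and 23.3% in wtsP2 and 9.02% and 7.06% in WT.

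Shares within a complex also need no scaling between libraries. Of the 12 ATP synthase genes, 4 held a larger share in both wtsP2 libraries than in either WT library (ATPsynbeta, blw, ATPsynCF6 and ATPsynF), 1 a smaller one (ATPsynG), and 7 overlapped. In complex III, 3 held larger shares (UQCR-6.4, UQCR-C1 and UQCR-Q), 2 smaller ones (ox and UQCR-C2), and 4 overlapped. In complex IV, 1 held a larger share (COX4), 2 smaller ones (COX7B and COX7C), and 4 overlapped, and in complex II all 4 overlapped. No background for such shares was computed, so these counts are not read as a trait of the subunit genes. After scaling, both wtsP2 libraries lay above both WT libraries for 32.3% of all tested genes and below them for 15.1%. The ox share was 6.71% and 3.84% in wtsP2 and 22.4% and 38.7% in WT, and since shares sum to 100 within a library, a lower ox share raises those of the others. The same holds for ATPsynG in complex V. There ATPsynbeta held a larger share in wtsP2 at a lower level (734 and 591 CPKM, against 904 and 778 CPKM in WT).

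The authors also gave group means scaled with DESeq. In the authors' deposited table, 23 of the 32 genes had a ratio of wtsP2 to WT below 1 and 9 above 1, with a median log2 ratio of -0.40, against 0.04 over 6386 tested genes. The direction was the same as in the per-library counts for 30 of the 32. The exceptions were COX7A (1.07) and SdhB (3.84) in the authors' deposited table, both near 0 in the count fit. For ox, ATPsynG and blw the ratios in the authors' deposited table were 0.114, 0.303 and 1.60. For 3 of the 12 duplicates with no count in any library, the authors' deposited table has a mean above 0. These are SdhCL (0 in wtsP2, 7.96 in WT), COX6AL2 (0.542 in wtsP2, 1.86 in WT) and ATPsynbetaL (0.284 in wtsP2, 0 in WT), so for them it does not match the per-library counts. Some tested genes did not match either. In wtsP2 its mean was higher for ATPsynC (3609) than for ATPsynbeta (2441). The counts were lower for ATPsynC (3406 and 2765) than for ATPsynbeta (4602 and 4048). Its WT mean for SdhB, 11.1, lay below both WT counts (15 and 27). That mean is scaled and the counts are raw, so this alone does not show a mismatch.

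Other genes of energy metabolism showed 0 calls in every list as well. The subunits of complexes IV and V that the symbols miss, levy, cype and sun, were all negative, with cype at -0.75 ± 0.42 and sun at -0.95 ± 0.81. They are parents of COX6AL, COX6CL and ATPsynepsilonL. The adenine nucleotide carrier and pore list (3 tested) had a median of -0.69, with porin, the outer membrane channel, at -1.15 ± 0.37 (edgeR adjusted p = 0.368) and sesB, the main carrier, at -0.69 ± 0.39. Complex I genes (31 tested of 39, 18 negative) had a median of -0.46, or -0.06 from genes of like length and level, with ND-PDSW at -1.62 ± 0.43 and ND-MLRQ at -2.18 ± 0.63. Transcripts of the mitochondrial genome (9 tested of 13, 6 negative) had a median of -0.22, with mt:CoI, for the catalytic subunit of complex IV, at -0.87 ± 0.41 and mt:ND2 at 1.97 ± 1.67. Krebs cycle genes (10 tested) lay on the other side, with 9 positive and a median of 0.64, or 0.65 above genes of like length and level. The aconitase gene mAcon1 was at 0.81 ± 0.38 and the isocitrate dehydrogenase gene Idh3b at 2.84 ± 1.94, and whether the list differed from the subunit genes was not tested. Regulators of mitochondrial genes (7 tested, 4 negative) had a median of -0.76, or -0.61 from genes of like length and level, with ewg at 0.88 ± 0.51 and mtTFB1 at -0.76 ± 0.55. That distance was -0.56 for levy, cype and sun and -0.56 for the carrier and pore list. It was -0.22 for transcripts of the mitochondrial genome and -0.01 for the complex IV assembly genes. The complex IV assembly genes Scox and Surf1 were at -1.15 ± 2.37 and 1.61 ± 2.40, and neither had a count in WT 2.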

How the data were processed

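Per the labels' protocols, the SOLiD Total RNA-seq kit was used on total RNA of wing discs. The submitters' processing notes name HTSeq, DESeq (both without a version) and the builds BDGP5 and dm3. Aligner and strand setting: not given in the sources used here. Each library has a deposited table of raw read counts, with the length and position of every feature. The same files hold RPKM values of the authors, per the file headers, which were not used. A further deposited table gives, per the file headers, each group's mean signal after the authors' DESeq scaling and their fold, the ratio of the wtsP2 to the WT mean.

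Symbols came from the reference tables by identifier (14347 of 15222 features matched). The main test was that of edgeR 4.0.16 under R 4.3.3 (filterByExpr, TMM scaling, robust quasi-likelihood F test, Benjamini-Hochberg adjustment over 7278 genes, threshold 0.05). Each standard error was taken as the size of the log2 fold change divided by the root of F. The procedure was also run on simulated data, and the share of planted changes that it called is not given here. DESeq2 1.42.0 and limma-voom (limma 3.58.1) were alternatives. Genes of like length and level shared 1 of 5 equal classes of length and 1 of 5 of mean log CPM over all tested genes. Full values were given for the 3 highest genes and the 3 with the smallest p in each complex, and for lists outside it the 2 smallest p; the other members' counts and folds are shown because the symbol rule fixes them. The members and lists were chosen with earlier results of these data known. Planned comparisons of promoters and proteins were not run.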

Additional observations from a re-analysis of the deposited data

How the results depend on the processing

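Of 446 gene-level values over the alternatives, 389 kept direction and side of the threshold, 15 passed the threshold and 43 changed sign, in 15 of the 32 genes; 1 value did both (COX6B without WT 1). Scaling by RLE or by library totals, protein-coding genes alone, no filter, a mean of at least 20 counts and DESeq2 changed no sign. Called genes over all tested numbered 37 without a filter, 107 with the replicate block, 185 in DESeq2 (2 of them subunit genes) and 150 in limma-voom, and 18 to 3195 with 1 library left out (0 to 9 subunit genes). Whether the replicate numbers pair the libraries is not known. Replicate differences of the 2 groups correlated at 0.008 over tested genes, which does not decide it. With the replicate block the members' median was -0.20 that of complex II 0.08, no member was called, and their median distance was -0.96 to all genes and -0.29 to like genes. The block gave ATPsynD 0.0033, COX6B 0.25, UQCR-Q 0.0064, SdhB 0.33, RFeSP 0.19, COX5B 2.16 and COX4 0.0177. In limma-voom the distance to all genes was -1.01, the complex II median 0.23, COX7A 0.0170, ATPsynD 0.40, SdhD 0.46, SdhB 0.29 and COX5B 4.01. With a length curve taken out, the members' median was -0.08, the distance to all genes -0.33 and the complex IV median 0.34. COX7A was then at 0.36, ATPsynD 0.0508, COX6B 0.34, UQCR-Q 0.0524, RFeSP 0.18, COX5B 0.43 and COX4 0.34. COX6B was at 0.0459 in thinned libraries. The complex IV median was -0.73 with levy and cype, and -0.58 in the authors' deposited table. The cause of these moves was not tested. Fits with 1 library left out were filtered anew, so their medians can hold duplicates that the main fit left out.

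With 1 library left out, the complex II median ran from -0.41 to 1.17, complex III from -0.70 to -0.13, complex IV from -0.57 to 0.19, complex V from -0.54 to 0.41, the distance to all genes from -1.39 to -0.33 and to like genes from -0.22 to 0.18. Genes that changed sign ran from -0.79 to 0.40 (ATPsynB), -0.55 to 0.61 (ATPsynD), -1.29 to 0.42 (ATPsynE), -2.03 to 0.71 (ATPsynO), -0.19 to 1.09 (ATPsyngamma), -0.39 to 0.48 (COX4), -1.14 to 0.0224 (COX5B), -0.70 to 1.34 (COX6B), -0.25 to 0.22 (COX7A), -0.89 to 1.49 (RFeSP), -0.78 to 1.53 (SdhB), -1.42 to 1.17 (SdhD), -1.01 to 0.25 (UQCR-11), -0.19 to 1.10 (UQCR-C1) and -0.27 to 0.36 (UQCR-Q). Finer classes (10 by 10) gave a distance to like genes of 0.0088, and a background without ribosomal protein and complex I genes -0.03; both were chosen after seeing the data. The member list held no assembly factors, so that alternative changed nothing. The WT libraries differed in depth (2112468 and 696952 counts) and correlated at r = 0.564 over all tested genes, against 0.867 for the wtsP2 libraries. Libraries thinned to equal depth gave 0 edgeR calls (371 genes higher and 209 lower at an unadjusted p under 0.05), and the part of depth was not separated further.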
